A study of Mus musculus with 48 samples.

Results

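Aminoacyl-tRNA synthetases, the enzymes that attach each amino acid to its tRNA, were examined in the RNA-Seq data of murine striatal progenitor cells. The members were the rows of the normalized abundance table that carry 1 of 36 listed gene symbols, out of 18178 genes with a symbol and 27281 rows in all. The list holds 20 cytosolic enzymes and 16 mitochondrial ones, whose symbols end in 2. All 36 members were found and all 36 passed the filter on low values.

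The 48 samples were of the C57BL/6 strain and fell into 16 conditions with 3 samples each. STHdhQ111 cells carry a polyglutamine-expanded huntingtin on both alleles and STHdhQ7 cells are wild type. Both are conditionally immortalized lines, and each genotype is represented by 1 line, so that genotype and line cannot be told apart. All cells, the controls included, were grown at 33 °C in serum and then kept without serum for 24 hours with a compound or with vehicle. STHdhQ7 cells received vehicle only, and STHdhQ111 cells received vehicle or 1 of 14 compounds, each of which the study had picked because it protected these cells. The antihistamine meclizine, the antihistamine cyproheptadine, the antipsychotic loxapine, the sirtuin inhibitor selisistat and diacylglycerol kinase inhibitor II (DKI) were given at 10 µM, and pizotifen, a relative of cyproheptadine, at 5 µM. Cysteamine was given at 250 µM, the histone deacetylase inhibitor sodium butyrate at 1 mM, and the vitamin B6 antagonist 4-deoxypyridoxine (DOP) at 4 mM. Fingolimod phosphate was given at 250 nM, trichostatin A at 10 nM, nortriptyline at 1 nM, and nicotinamide and haloperidol at 0.5 nM. Group A comprises cyproheptadine, loxapine and pizotifen, and Group B comprises meclizine and DKI. The study drew this line from metabolite profiles of other samples, after these 5 compounds had clustered together in the present RNA data.

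Cytosolic synthetases charge the tRNAs used by ribosomes in the cytoplasm, and several of them sit in a multi-synthetase complex held together by scaffold proteins. A separate set, encoded in the nucleus and imported, charges tRNAs inside mitochondria, while Gars and Kars each supply both compartments from 1 gene. When an amino acid runs short, uncharged tRNA activates the kinase GCN2, translation of the transcription factor ATF4 increases, and ATF4 raises genes for amino acid synthesis, transport and tRNA charging. In neurons, mutations in several synthetase genes cause inherited neuropathy or brain disease.

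Values are log2 normalized abundances, and differences are log2 fold changes fitted with limma. Depth per sample is unknown because no counts were used here, and the scale has no correction for gene length, so levels were not compared between genes. Rows with low values hardly vary in this table, so the fold changes of the members with the lowest values may be understated. These were mitochondrial. The medians of Nars2 (5.9), Ears2 (6.04), Aars2 (6.68) and Mars2 (6.75) lay below the median of 6.78 over genes with a symbol. Replicates of a condition correlated at 0.9964 to 0.9994 over genes. The 3 samples of a condition differ in collection day or time but come from 1 cell line, so that p-values measure the spread between collections of that line. Every compound was compared with the same 3 vehicle samples. Of 32 listed cell type markers, 27 were in the table and 8 of these stayed under 1 in every sample, among them the striatal gene Drd1. The progenitor gene Nes had a mean of 10.95 in STHdhQ7 and 4.96 in STHdhQ111 vehicle samples, so that the progenitor label rests on different levels in the 2 lines.

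Cytosolic synthetases were higher with all 5 compounds of Groups A and B. In Group B, 16 of 20 were higher and 0 lower, against 19.8% of 13409 genes higher and 41.0% called in either direction. In Group A, 16 of 20 were higher and 0 lower, against 15.6% of genes higher and 32.8% in either direction. The median log2 fold change of the cytosolic members was 0.62 in Group B and 0.39 in Group A, while the median over all genes was -0.0041 and 0.0014. By compound, DKI raised 17, cyproheptadine 17, meclizine 16, pizotifen 14 and loxapine 12 of the 20 cytosolic members. Over all genes, the share called higher was 20.4% of 42.3% called with DKI, 17.5% of 35.6% with cyproheptadine, 13.1% of 26.8% with meclizine, 8.86% of 17.9% with pizotifen and 10.1% of 21.9% with loxapine. Dars and Vars, besides Kars and Qars, did not pass in Group A, and Farsa and Hars did not pass in Group B. Marker sums also moved with Group B: the fibroblast or mesenchyme list (3 genes) summed to 14.19 to 14.63 (log2) against 15.01 to 15.21 in vehicle samples, and the neural progenitor list (5 genes) to 14.85 to 15.27 against 15.42 to 15.54. The astrocyte list summed to 6.52 to 7.01 against 7.15 to 7.3, and the striatal lineage list to 9.84 to 9.99 against 10.04 to 10.23. Most of the progenitor, astrocyte and striatal sums in vehicle samples came from Vim (mean 15.42), Slc1a3 (7.21) and Foxp1 (9.99), in that order. In Group A the fibroblast and progenitor lists ran from 14.52 to 15.1 and from 15.16 to 15.58, and the astrocyte and striatal lists from 6.53 to 7.23 and from 9.84 to 10.11. The part of these lists in the rises was not tested. These bulk samples come from 1 cell line, and fewer cells of a type and less RNA per cell cannot be told apart.

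**Figure D1:**
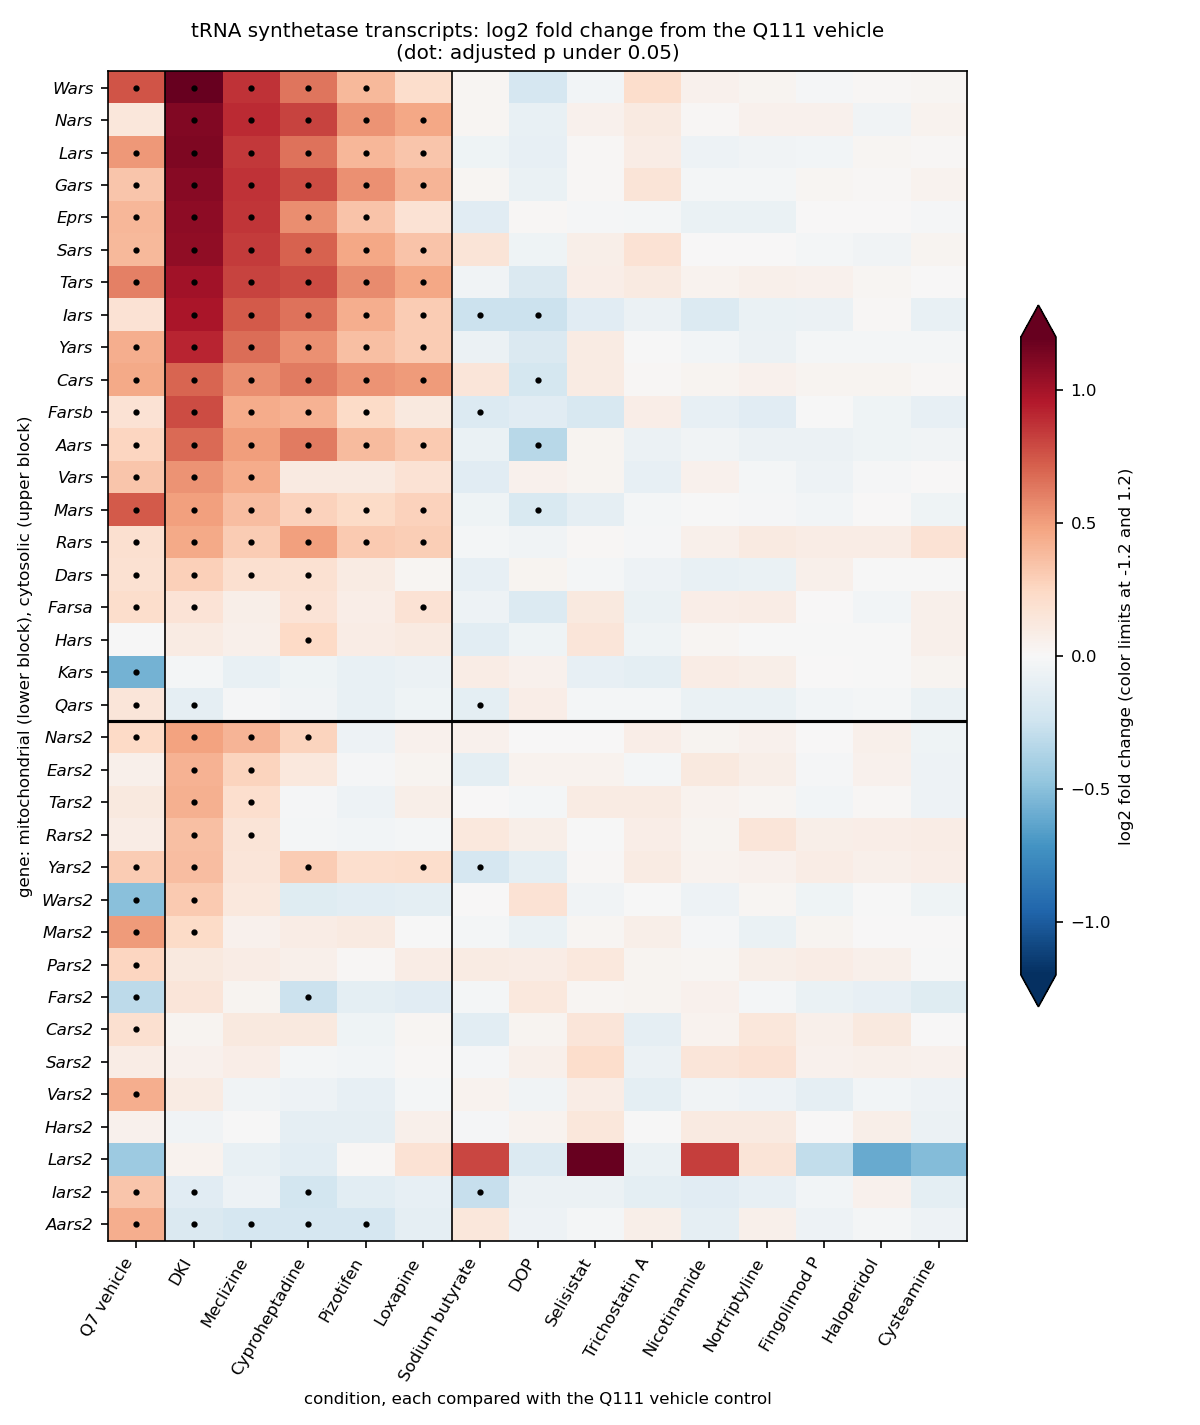
Log2 fold change of each of the 36 members (rows, cytosolic block above the mitochondrial block) in each of 15 conditions against the STHdhQ111 vehicle control (columns), with a dot where the adjusted p was under 0.05. Colours saturate at 1.2 in either direction. The cytosolic block is red under DKI, meclizine, cyproheptadine, pizotifen and loxapine, apart from Kars and Qars, and pale under the other 9 compounds, while the STHdhQ7 column is mixed.

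A core of 11 cytosolic genes passed the test with each of the 5 compounds: Aars, Cars, Gars, Iars, Lars, Mars, Nars, Rars, Sars, Tars and Yars. They charge alanine, cysteine, glycine, isoleucine, leucine, methionine, asparagine, arginine, serine, threonine and tyrosine. Eprs, which charges glutamate and proline, Wars, for tryptophan, and Farsb, a subunit of the phenylalanine enzyme, passed with 4 compounds and not with loxapine. Dars, for aspartate, and Farsa, the other phenylalanine subunit, passed with 3, Vars, for valine, with both Group B compounds, and Hars, for histidine, with cyproheptadine only. Kars, for lysine, and Qars, for glutamine, were higher with none of the 5. The share of all genes that passed with all 5 was not counted. Since the 5 comparisons share the same 3 vehicle samples, the shares by compound do not supply it.

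Wars, which charges tryptophan (ENSMUSG00000021266, chr12:108860030-108894174), had the largest rise in Group B. Its values were 8.68, 8.59 and 8.57 in vehicle, 10.11, 9.85 and 10.04 with DKI and 9.56, 9.31 and 9.57 with meclizine. Every Group B sample lay above every vehicle sample, and the DKI samples above those of meclizine. The log2 fold change was 1.13 (SE 0.077, adjusted p = 1.9e-14), a 2.19-fold rise with a 95% interval of 1.96 to 2.43. In Group A the values were 9.13, 9.31 and 9.33 with cyproheptadine, 8.99, 9.01 and 9.01 with pizotifen and 8.73, 8.88 and 8.85 with loxapine. All 9 lay above the vehicle samples, with those of loxapine nearest to them.

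Nars, the asparagine enzyme (ENSMUSG00000024587, chr18:64499647-64516652), stood at 10.92, 10.84 and 10.82 in vehicle samples. It reached 12.21, 11.82 and 11.90 with DKI and 11.85, 11.68 and 11.73 with meclizine, a log2 fold change of 1.00 in Group B (SE 0.075, adjusted p = 2.1e-13) or 2.0-fold. Cyproheptadine gave 11.62, 11.65 and 11.74, pizotifen 11.37, 11.42 and 11.40, and loxapine 11.27, 11.37 and 11.35. The vehicle samples did not overlap with any of the 5 compounds, and by mean the order was DKI, meclizine and cyproheptadine, with pizotifen and loxapine lowest. Nars was also the largest rise in Group A, together with Tars, each at 0.60 (adjusted p = 2.8e-08 for Nars and 1.6e-09 for Tars) or 1.52-fold, followed by Gars at 0.58 (adjusted p = 6.6e-09) or 1.49-fold.

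Lars, the leucine enzyme of the multi-synthetase complex (ENSMUSG00000024493, chr18:42202298-42262194), stood at 10.34, 10.25 and 10.19 in vehicle samples. It measured 11.59, 11.21 and 11.33 with DKI and 11.19, 10.99 and 11.14 with meclizine, a log2 fold change of 0.98 in Group B (SE 0.081, adjusted p = 2e-12) or 1.98-fold. With Group A compounds it ranged from 10.50 in 1 loxapine sample to 10.99 in 1 cyproheptadine sample, and no sample overlapped with the vehicle samples. Over the 15 samples of the 5 compounds, 14 cytosolic genes lay above every vehicle sample. Cars, Mars, Nars, Rars and Tars also lay above all 30 samples of STHdhQ111 cells given vehicle or one of the other 9 compounds. No mitochondrial member did either. How many of all genes did so was not counted, so these numbers only describe the members.

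**Figure D2:**
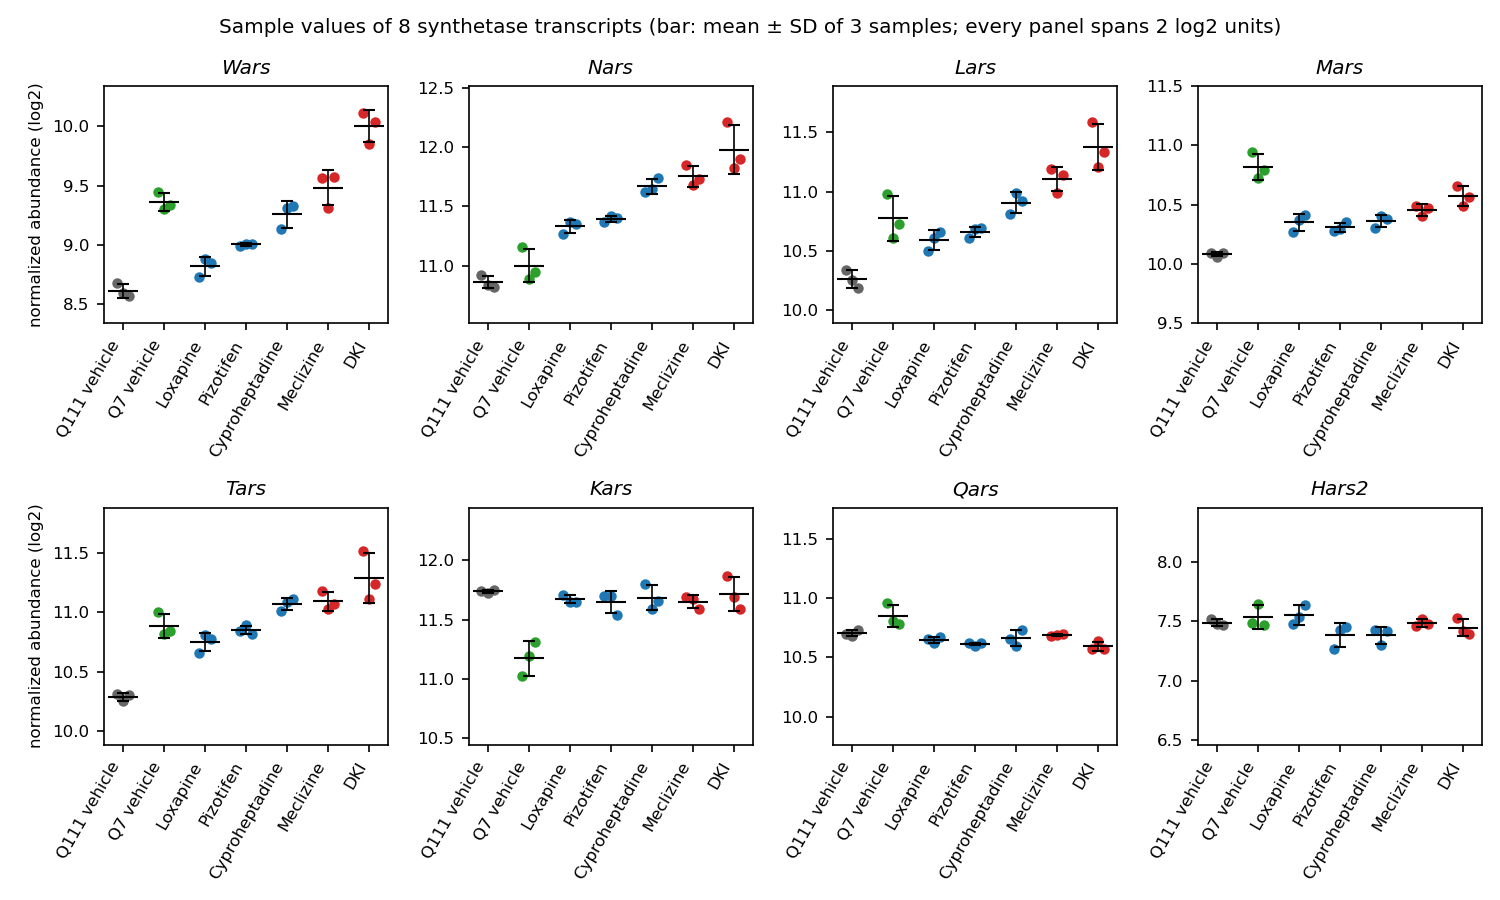
Log2 normalized abundance of 8 members in each of 3 samples (points, with mean and SD) of the STHdhQ111 vehicle, STHdhQ7, loxapine, pizotifen, cyproheptadine, meclizine and DKI conditions, with every panel spanning the same number of log2 units. By mean, Wars, Nars, Lars and Tars climb from vehicle through Group A to Group B, though cyproheptadine and meclizine samples meet or overlap. Kars and Qars stay near the vehicle samples under the 5 compounds, and Kars lies lower in STHdhQ7 cells.

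Kars showed the smallest change of the cytosolic genes in Group B. This gene (ENSMUSG00000031948, chr8:111993443-112011323) encodes both the cytosolic and the mitochondrial lysine enzyme. Its values were 11.74, 11.72 and 11.75 in vehicle, 11.87, 11.69 and 11.59 with DKI and 11.69, 11.67 and 11.59 with meclizine, and the Group B samples lay on both sides of the vehicle samples. The log2 fold change was -0.06 with a 95% interval of -0.17 to 0.055, so a rise of the size seen in Wars lies outside it. Gars, the other gene that serves both compartments, was higher by 0.98 in Group B. Qars stood at 10.70, 10.68 and 10.73 in vehicle and was slightly lower with DKI, at 10.57, 10.64 and 10.57 (log2 fold change -0.11, adjusted p = 0.032, limma).

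Cytosolic members inside and outside the multi-synthetase complex were both higher. Of the 12 free-standing members 10 passed in Group B and 11 in Group A, with medians of 0.71 and 0.43. Of the 8 complex members 6 passed in Group B and 5 in Group A, with medians of 0.41 and 0.31, and Kars and Qars belong to this set. Class I enzymes, with a Rossmann-fold active site, had 9 of 10 higher in Group B (median 0.71), and class II enzymes, with a different fold, 7 of 10 (median 0.60). These subsets were not tested against each other.

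Promoters of the cytosolic genes were searched for TGATGNAA, the form of the CCAAT-enhancer and ATF response element through which ATF4 is known to act. The windows came from RefSeq on GRCm38.p6, ran from 250 bases before to 50 bases after each gene's start, and were searched on both strands. A window was held for 13 of 20 cytosolic and 14 of 16 mitochondrial members. Of these, 5 cytosolic (38.5%) and 0 mitochondrial windows held the motif, against 1219 of 27025 genes (4.51%). A match from each of the 5 genes is shown with 11 bases on each side and the motif in capitals, read on the strand where it spells TGATGNAA, because these genes are among the core that moved with all 5 compounds.
Aars, chr8:111033840-111033869, minus strand: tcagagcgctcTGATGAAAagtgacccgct
Gars, chr6:55037960-55037989, minus strand: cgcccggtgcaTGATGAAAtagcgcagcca
Iars, chr13:49682126-49682155, minus strand: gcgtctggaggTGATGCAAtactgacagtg
Tars, chr15:11399655-11399684, plus strand: agctaaccagcTGATGCAAcgggactcctg
Yars, chr4:129189895-129189924, plus strand: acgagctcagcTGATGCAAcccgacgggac

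The motif shown began within 30 bases of the RefSeq start used for the window in all 5 genes. Counted from that first base, it began at -30 in Gars, -15 in Tars, 3 in Yars, 7 in Iars and 9 in Aars. The Aars window held a further match at -112, which is not shown. The outermost GENCODE M21 starts lie elsewhere for some genes, at 111033144 for Aars and 129189760 for Yars, both upstream of the windows shown. The log2 fold changes of these 5 genes in Group B ran from 0.59 to 0.98 with a median of 0.86. The 8 cytosolic genes whose window held no match, Dars, Eprs, Farsa, Farsb, Kars, Mars, Qars and Sars, ran from -0.06 to 0.97 with a median of 0.34. The 7 without a window, Cars, Hars, Lars, Nars, Rars, Vars and Wars, enter neither median. They include the largest rises in Group B, in Wars (1.13), Nars (1.00) and Lars (0.98). Eprs and Sars, both without a match, were higher by 0.97 and 0.95 in Group B, so the letters alone did not separate the genes that moved. For comparison, the established ATF4 targets Asns, which makes asparagine, and Trib3, a pseudokinase, carried the motif as follows.
Asns, chr6:7693214-7693243, minus strand: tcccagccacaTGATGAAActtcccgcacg
Trib3, chr2:152344028-152344057, plus strand: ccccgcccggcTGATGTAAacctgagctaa

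The window of Chac1 held a match further from the start, at -193, and those of Atf4, Ddit3 and Sesn2 held none.

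Averaged over their compounds, Group B raised the cytosolic enzymes more than Group A when the groups were compared directly. By compound, the cytosolic mean rose by 0.69 with DKI, 0.51 with meclizine, 0.46 with cyproheptadine, 0.298 with pizotifen and 0.245 with loxapine. Samples of meclizine (from 0.451) and cyproheptadine (up to 0.485) overlapped. Pizotifen had a lower dose than the rest, so dose and group were not separated. The standard errors leave out the spread between compounds. Of 20 cytosolic members 14 were lower in Group A than in Group B and 0 higher, against 21.4% of genes lower and 41.3% called in either direction, with a median difference of -0.33 (all genes -0.002). The largest differences were in Wars at -0.71 (SE 0.057, adjusted p = 7.1e-13), Eprs at -0.61 (SE 0.056, adjusted p = 2.2e-11) and Lars at -0.52 (SE 0.06, adjusted p = 4.4e-09). Only Eprs and Vars of the cytosolic members had no overlap between the 9 Group A and 6 Group B samples. For Eprs the Group A values ran from 11.73 to 12.27 and the Group B values from 12.35 to 12.86. Cars, Farsa, Hars, Kars, Qars and Rars did not pass this test. Mitochondrial members followed with 6 of 16 lower in Group A, among them Nars2, Rars2, Tars2 and Wars2 with no overlap between the groups. The share of all genes without overlap between the groups was not counted.

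Compounds at the same dose of 10 µM also differed within each group. Cyproheptadine, a tricyclic with a piperidine ring, raised 12 of 20 cytosolic members more than loxapine, a dibenzoxazepine with a piperazine ring, against 4.91% of genes higher and 10.5% called, with a median difference of 0.27. The largest differences were in Wars at 0.43 (adjusted p = 0.0012), Eprs at 0.38 (adjusted p = 0.0033) and Gars at 0.37 (adjusted p = 0.0013). No mitochondrial member passed (limma), and 3 had an unadjusted p under 0.05, while 1 was lower without replicate 2 of cyproheptadine and 1 was higher without replicate 3 of loxapine. DKI and meclizine differed in fewer genes. Wars at 0.52 (adjusted p = 0.00017) and Farsb at 0.34 (adjusted p = 0.00043) were higher with DKI among cytosolic members, and Tars2 at 0.22 (adjusted p = 0.011) and Rars2 at 0.21 (adjusted p = 0.013) among mitochondrial ones, against 4.30% of genes higher and 8.11% called. Without replicate 2 of DKI, 11 cytosolic members passed that comparison, and without replicate 1 of meclizine 4 did. No mitochondrial member passed without replicate 2 of meclizine or replicate 1 of DKI, and 1 did without replicate 3 of DKI. Pizotifen, which shares the methylpiperidine ring of cyproheptadine, was given at 5 µM, and its cytosolic median was 0.35 beside 0.55 for cyproheptadine at 10 µM. Since their doses differ, these were not compared further.

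Mitochondrial synthetases moved less and in both directions. In Group B 6 of 16 were higher and 1 lower, and in Group A 1 was higher and 3 lower, with medians of 0.10 and -0.01. Over all genes 19.8% were higher and 21.2% lower in Group B, and 15.6% were higher and 17.2% lower in Group A. In either direction, 7 of 16 mitochondrial members were called in Group B beside 41.0% of genes, and 4 of 16 in Group A beside 32.8%. Called counts of mitochondrial members were 7 higher and 2 lower with DKI, 4 and 1 with meclizine, 2 and 3 with cyproheptadine, 1 and 0 with loxapine, and 0 and 1 with pizotifen. The shares of all genes lower were 21.9%, 13.6%, 18.2%, 11.8% and 9.07% in the same order. No mitochondrial member was higher with all 5 compounds, and 9 of 16 were higher with none. The share of all genes higher with all 5 or with none was not counted. The small mitochondrial counts moved when 1 sample was left out. Meclizine had 2 calls without vehicle replicate 1 or 3, and 3 without vehicle replicate 2 or its own replicate 1 or 3. The call of loxapine was lost without any of its own samples or vehicle replicate 1 or 2, and that of pizotifen without vehicle replicate 1 or its own replicate 1 or 3.

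Nars2, the mitochondrial asparagine enzyme, had the largest mitochondrial rise in Group B. It stood at 5.78, 5.90 and 5.90 in vehicle, 6.46, 6.27 and 6.30 with DKI, and 6.21, 6.21 and 6.39 with meclizine, and no sample overlapped (log2 fold change 0.45, adjusted p = 7.2e-07). Ears2 at 0.34, Tars2 at 0.31, Rars2 at 0.26, Yars2 at 0.26 and Wars2 at 0.22, which serve glutamate, threonine, arginine, tyrosine and tryptophan, also passed. Yars2 was the 1 mitochondrial member higher in Group A, at 0.24 (adjusted p = 0.003).

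Aars2, the mitochondrial alanine enzyme, was lower in both groups while its cytosolic counterpart Aars was higher. Its values were 6.70, 6.68 and 6.80 in vehicle, 6.53, 6.48 and 6.64 with DKI and 6.55, 6.46 and 6.55 with meclizine, and all 6 lay below the vehicle samples (log2 fold change -0.19, SE 0.056, adjusted p = 0.0059). In Group A it was at -0.17 (SE 0.053, adjusted p = 0.012). Also lower in Group A were Fars2, for phenylalanine, at -0.17 (SE 0.062, adjusted p = 0.03) and Iars2, for isoleucine, at -0.15 (SE 0.043, adjusted p = 0.0072). These calls did not hold with every vehicle sample left out, though the direction did. Without vehicle replicate 3, Aars2 was at -0.13 in Group A (adjusted p = 0.13) and -0.15 in Group B (adjusted p = 0.073), and Fars2 at -0.14 (adjusted p = 0.16). Without vehicle replicate 1, Fars2 was at -0.15 (adjusted p = 0.13) and Iars2 at -0.12 (adjusted p = 0.084). Mitochondrial calls in Group A numbered 1 without vehicle replicate 1 and 2 without vehicle replicate 3. No member was called in opposite directions in Groups A and B.

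Hars2, the mitochondrial histidine enzyme, had the smallest change of its class in Group B. It measured 7.52, 7.48 and 7.47 in vehicle, 7.53, 7.42 and 7.39 with DKI and 7.46, 7.52 and 7.48 with meclizine, with the samples intermixed (log2 fold change -0.02, 95% interval -0.16 to 0.12). Hars2 and Hars lie head to head on chromosome 18 and share 195 bases on opposite strands. Cars2, Fars2, Iars2, Lars2, Mars2, Pars2, Sars2 and Vars2 did not pass in Group B either.

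**Figure D3:**
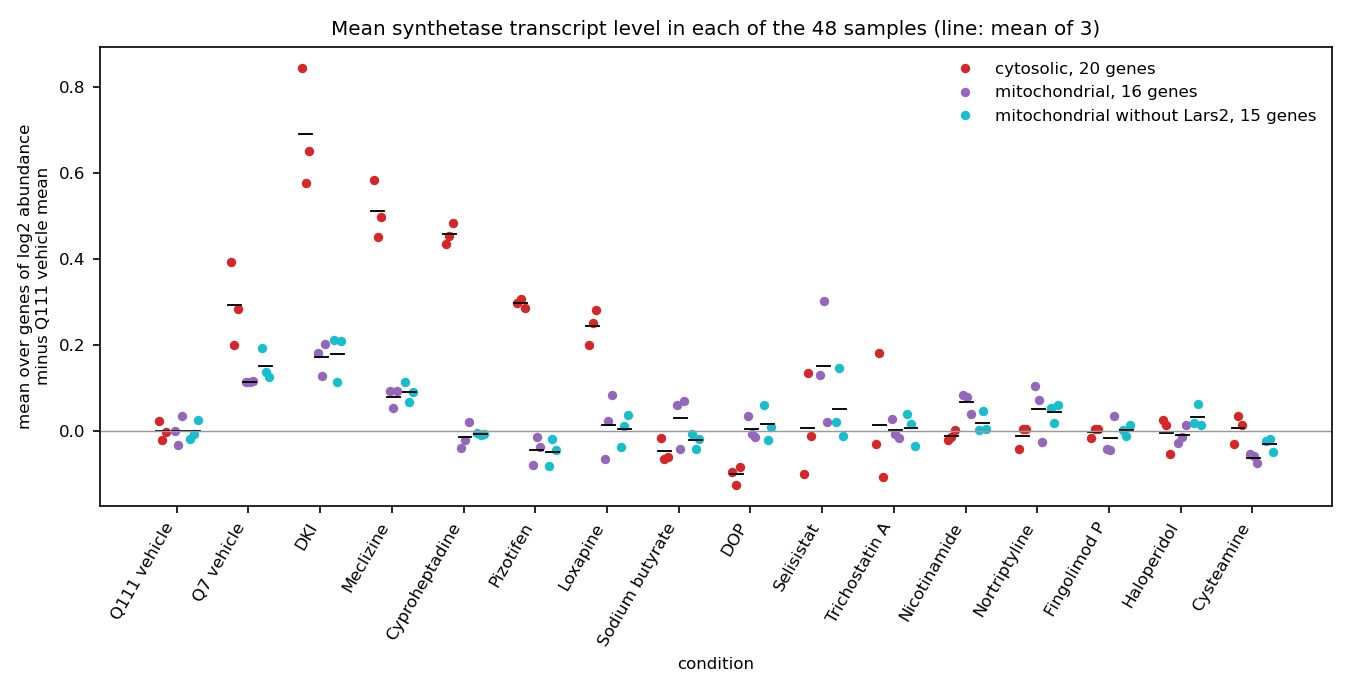
Mean over the 20 cytosolic members, the 16 mitochondrial members, and the 15 mitochondrial members without Lars2 in each sample (points) minus the mean of the STHdhQ111 vehicle samples, in log2 units, for all 16 conditions, with a line at the mean of 3 samples. The cytosolic mean stands at 0.69 with DKI and 0.24 with loxapine, while the mitochondrial mean without Lars2 stands at 0.18 and 0.004.

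Averaged over the class in each sample, the separation between compartments was plain with the 5 compounds. The cytosolic mean minus that of the vehicle samples was 0.69 ± 0.14 with DKI, 0.51 ± 0.068 with meclizine, 0.46 ± 0.025 with cyproheptadine, 0.30 ± 0.01 with pizotifen and 0.24 ± 0.041 with loxapine (SD, n = 3). The mitochondrial mean, leaving out Lars2, was 0.18, 0.091, -0.007, -0.048 and 0.004 in the same order. Lars2 was left out after its values were seen, for the reason given with its values. The class means are a description, with no test.

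The vehicle samples and 11 of the compounds covered the same 3 days and 3 times of collection but in other day and time pairs. Meclizine and pizotifen shared their pairs with fingolimod phosphate and haloperidol. Against these, meclizine raised 16 cytosolic members (14.8% of genes higher, 28.8% called) and pizotifen 14 (9.34% higher, 17.3% called). Loxapine shared its pairs with nicotinamide and nortriptyline, and against these it raised 13 and 1 was lower (11.9% of genes higher, 10.9% lower, 22.8% called).

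The other 9 compounds left the cytosolic synthetases near vehicle levels or below. DOP blocks vitamin B6, the cofactor of many amino acid enzymes, and lowered 4 of 20 cytosolic and 0 of 16 mitochondrial members, against 11.2% of genes lower and 20.1% called. Aars stood at 12.18, 12.00 and 12.16 with DOP, below all vehicle samples at 12.47, 12.43 and 12.44 (log2 fold change -0.33, adjusted p = 0.0063). Iars at -0.25 (adjusted p = 0.043), Cars at -0.21 (adjusted p = 0.024) and Mars at -0.18 (adjusted p = 0.028) were also lower. Leaving out DOP replicate 2 took the count to 0, leaving out DOP replicate 1 took it to 2, leaving out vehicle replicate 1 or 2 took it to 1, and against nicotinamide and nortriptyline, collected at the same days and times, it was 6 lower and 1 higher (5.08% of genes lower, 5.48% higher, 10.6% called). Aars, Cars and Mars passed there, while Iars was at -0.13 (adjusted p = 0.3). The Iars call with DOP was also lost with no filter (adjusted p = 0.07), with collection time as a term (adjusted p = 0.054), and without vehicle replicate 1 or 2 or DOP replicate 1 or 2 (adjusted p from 0.091 to 0.17). That of Aars was lost without DOP replicate 2 (adjusted p = 0.066). One mitochondrial member had an unadjusted p under 0.05 with DOP.

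Sodium butyrate lowered 3 cytosolic members (Iars, Farsb and Qars) and 2 mitochondrial ones (Iars2 and Yars2), against 17.8% of genes lower and 37.5% called. Both isoleucine enzymes led, with Iars2 at -0.27 (adjusted p = 8.5e-05) and Iars at -0.26 (adjusted p = 0.023). Without vehicle replicate 1 no cytosolic member passed. Of the other samples left out in turn, vehicle replicate 2 or 3, or sodium butyrate replicate 1 or 2, left 1 cytosolic call. For the mitochondrial members, 1 call was left without vehicle replicate 2 or 3 or sodium butyrate replicate 3.

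With selisistat, trichostatin A, nicotinamide, nortriptyline, fingolimod phosphate, haloperidol and cysteamine, limma called 0 of 36 members. The shares of all genes called were 0.515% for selisistat, 13.1% for trichostatin A, 10.4% for nicotinamide, 3.83% for nortriptyline, 0.0597% for fingolimod phosphate, 0% for haloperidol and 7.83% for cysteamine. An unadjusted p under 0.05 was reached by 5 members with selisistat, 2 with trichostatin A, 1 with nicotinamide, 3 with nortriptyline, 0 with fingolimod phosphate, 0 with haloperidol and 2 with cysteamine. The 95% intervals of all members but Lars2 lay between -0.25 and 0.26 with haloperidol and between -0.26 and 0.24 with fingolimod phosphate, which leaves room for small changes only. Without replicate 3 of selisistat 1 cytosolic and 3 mitochondrial members passed, and without replicate 3 of trichostatin A 2 cytosolic members did.

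STHdhQ7 cells had higher levels of many synthetases than STHdhQ111 cells under vehicle. Of the cytosolic members 16 were higher and 1 lower, and of the mitochondrial members 8 were higher and 2 lower, against 29.2% of genes higher, 26.6% lower and 55.8% called. Medians were 0.29 for the cytosolic and 0.15 for the mitochondrial members (all genes 0.004). Marker lists also moved with this contrast. The microglia or blood list summed to 7.87 to 8.64 (log2) in STHdhQ7 and 10.54 to 10.8 in STHdhQ111 samples, which rested on Ptprc (means 7.86 and 10.59) while Cd68 (6.13 and 6.16) and Aif1 (-2.18 in both) were level. The fibroblast or mesenchyme list summed to 14.48 to 15.0 and 15.01 to 15.21, with Col1a2 at 10.33 and 13.03 but Col1a1 at 14.65 and 14.63. The astrocyte list summed to 5.9 to 6.66 and 7.15 to 7.3, the striatal lineage list to 9.18 to 9.62 and 10.04 to 10.23, and the oligodendrocyte list, with 1 gene in the table, to 2.73 to 2.88 and 3.0 to 3.13. The neural progenitor list was higher in STHdhQ7, at 15.67 to 15.84 against 15.42 to 15.54. Most of the astrocyte, striatal and progenitor sums came from Slc1a3 (means 6.31 and 7.21), Foxp1 (9.21 and 9.99) and Vim (15.6 and 15.42), in that order. The part of these lists in the difference was not tested.

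Wars showed the largest rise, from 8.68, 8.59 and 8.57 in STHdhQ111 to 9.45, 9.30 and 9.34 in STHdhQ7 cells (log2 fold change 0.75, SE 0.088, adjusted p = 2.3e-09) or 1.68-fold. Mars, the methionine enzyme of the complex, stood at 10.09, 10.06 and 10.09 against 10.94, 10.72 and 10.79 (0.74, SE 0.06, adjusted p = 1.7e-13), and Tars, for threonine, at 10.31, 10.25 and 10.30 against 11.00, 10.82 and 10.84 (0.60, adjusted p = 8.3e-09). The lines did not overlap for these 3 genes. Nars, one of the core of 11 genes, did not pass between the lines (0.14, adjusted p = 0.18), nor did Iars and Hars.

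Kars went the other way. It measured 11.02, 11.19 and 11.31 in STHdhQ7 and 11.74, 11.72 and 11.75 in STHdhQ111 samples, with a log2 fold change of -0.56 (SE 0.064, adjusted p = 1.1e-09) or a ratio of 0.68. Thus the cytosolic gene that moved least with Group B compounds had the largest fall in STHdhQ7 cells. Wars2 at -0.50 (SE 0.075, adjusted p = 3.8e-07) and Fars2 at -0.31 (SE 0.075, adjusted p = 0.00053) were also lower in STHdhQ7 cells. Wars and Wars2, which serve the same amino acid, therefore lay on opposite sides of the line difference. Mars2 at 0.51, Vars2 at 0.43 and Aars2 at 0.43 were the mitochondrial members with the largest rises.

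Partner genes of the synthetases were counted from listed groups. Beside these counts, 19.8% of all genes were higher in Group B and 15.6% in Group A. In STHdhQ7 cells 29.2% of all genes were higher and 26.6% lower. The complex scaffold genes Aimp1, Aimp2 and Eef1e1 were all higher in Group B, at 0.36, 0.26 and 0.40, and in Group A Aimp2 and Eef1e1 passed. Of 12 genes for tRNA editing, amidation and peptidyl-tRNA release, 8 were higher in Group B, led by Gatc, a subunit of the mitochondrial glutaminyl-tRNA amidotransferase, at 0.40. In Group A Prorsd1 was higher, at 0.26. In STHdhQ7 cells 6 of these 12 were lower, with the D-aminoacyl-tRNA deacylase gene Dtd1 at -0.73.

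Elongation factors that work with charged tRNA were also counted by compartment. Their counts stand beside 19.8% of all genes higher and 21.2% lower in Group B. The shares were 15.6% and 17.2% in Group A, and 29.2% and 26.6% in STHdhQ7 cells. All 5 cytosolic factors were higher in Group B, from 0.20 for Eef1a1 to 0.43 for Eef1g, and Eef1g passed in Group A at 0.20. Of 4 mitochondrial factors, Tsfm was higher at 0.26 and Tufm lower at -0.16 in Group B, and 0 passed in Group A by limma. In STHdhQ7 cells Eef1g was higher and Eef1a1 lower among the cytosolic factors, and Tsfm and Tufm were higher and Gfm2 lower among the mitochondrial ones.

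Among 9 genes of the response to uncharged tRNA, 7 were higher in Group A and 7 in Group B, and 8 in STHdhQ7 cells. The shares of all genes higher were 15.6%, 19.8% and 29.2% in that order, with 32.8%, 41.0% and 55.8% called in either direction. Atf4 was higher by 1.26 in Group B (adjusted p = 2.7e-15) and 0.54 in STHdhQ7 cells (adjusted p = 2.9e-06). Asns was higher by 1.02 in Group A and 1.54 in Group B, and Trib3 by 2.84 in Group B. Eif2ak4, which encodes the sensor GCN2, was slightly lower in Group B at -0.16 (adjusted p = 0.013). By compound, the log2 fold change of Atf4 was 1.32 with DKI, 1.30 with cyproheptadine, 1.21 with meclizine, 0.94 with pizotifen and 0.83 with loxapine. With DOP, 4 cytosolic synthetases were lower, against 11.2% of genes lower, and the count fell to 0 without DOP replicate 2. Atf4 was at -0.11 with DOP (adjusted p = 0.41, limma). With sodium butyrate 3 cytosolic synthetases were lower and 0 higher, against 17.8% of genes lower. That count fell to 0 without vehicle replicate 1. Atf4 was higher by 0.23 with sodium butyrate (adjusted p = 0.04, limma). The part of Atf4 in the synthetase levels was not tested.

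Lars2, the mitochondrial leucine enzyme (ENSMUSG00000035202, chr9:123366927-123462666), varied far more than the other members. Its SD over the 48 samples was 0.74, while that of the other 15 mitochondrial members ran from 0.094 to 0.18. It stood at 14.51, 13.83 and 14.40 in vehicle samples and at 16.02, 16.90 and 14.74 with selisistat, above the vehicle samples but with a wide spread among themselves. It was called in 0 comparisons by limma.

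**Figure D4:**
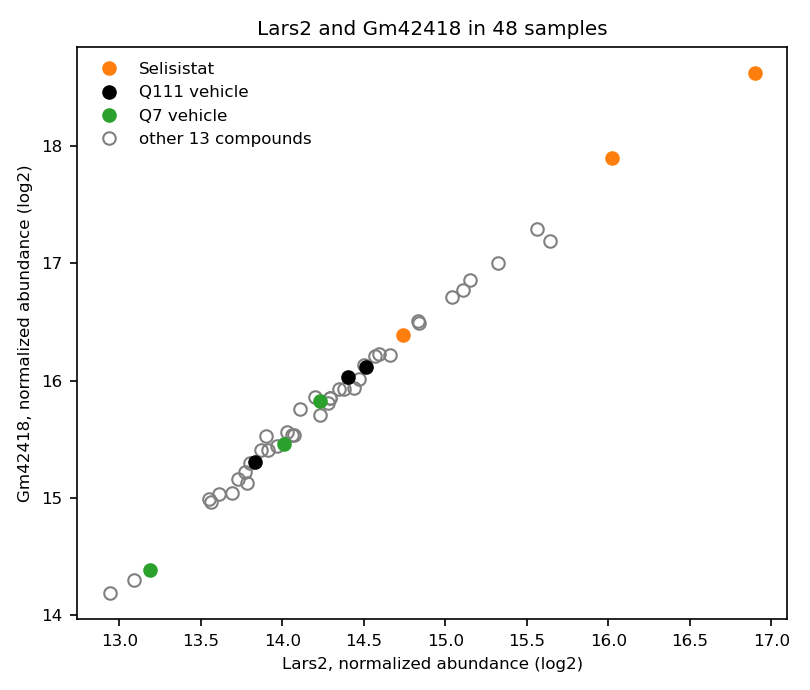
Lars2 (x axis) against Gm42418 (y axis) in the 48 samples, both as log2 normalized abundance, with the selisistat, STHdhQ111 vehicle and STHdhQ7 samples coloured. The samples lie along 1 line over the whole range, with a selisistat sample at 16.90 at its upper end.

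Of 11195 rows with a mean of at least 5, Gm42418, a gene model that carries ribosomal RNA sequence, had values most like those of Lars2 over the 48 samples (Pearson 0.996, Spearman 0.996, and 0.995 without the 2 samples farthest from the median). Within collection days 1, 2 and 3 the coefficient was 0.998, 0.996 and 0.995. Close behind were Gm15564 (0.983), the signal recognition particle RNAs Rn7s1 and Rn7s2 (0.968), Rn7sk (0.965), Rmrp (0.955) and Rpph1 (0.944), which encode structural RNAs apart from Gm15564. These likenesses were ranked after the values were seen, and the samples share libraries and preparation. The other members reached at most 0.364 (Hars2). Lars2 shares 72 bases with Gm15564 at 98.6% identity on the same strand, longer than the 50-base reads, although 13 of the 36 members, Lars2 among them, share a stretch of 50 to under 100 bases with another gene on the same strand. The part of such reads in the Lars2 values was not tested, and its values are given here as those of the row, not as a measure of the enzyme's mRNA.

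Other members share sequence with neighbours. Aars shares 1326 identical bases with Exosc6 on the same strand, and Yars 102 bases with Tpbpa at 98.0% identity, so that reads there could be assigned to either gene. On the opposite strand, Iars2 shares 2034 bases with Rab3gap2 and Fars2 503 with Nrn1. The kit marks strand, but the strand setting of the authors' counting is not stated, so these values are uncertain to that extent.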

How the data were processed

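RNA-Seq was analysed in 48 samples, grouped by their labels into 16 conditions. Per the labels and the methods of the study, the authors selected polyA RNA, sequenced 50-base single-end reads, trimmed them with Trimmomatic 0.36, aligned them to the GRCm38.p5 transcriptome and quantified them with RSEM. The deposited table holds log2 normalized abundances, 1 per gene and sample, whose scale is not labelled and was taken as log2 because they run from -2.343 to 18.6223. The transformation is not given in the sources used here, and linear totals differed by a factor of at most 1.1143 between samples. Depth is unknown and no pseudocount was needed, so no count model was used and no counting error is given.

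Genes with a symbol and a mean of at least 1 were tested (13409). With limma 3.58.1 in R 4.3.3, all samples entered 1 fit with condition and collection day as terms (30 residual degrees of freedom, variances with a trend). Tests were two-sided, and a gene was called where its Benjamini-Hochberg adjusted p, taken over all tested genes of that comparison, was under 0.05. In data simulated for meclizine against vehicle with 200 changed genes of 13409, 198 were recovered, with 4.81% of calls false. The simulated shifts were larger than many member changes reported here and spared genes with low values. The noise was drawn independently for each sample. The recovery of small changes was therefore not measured. Replicate numbers do not pair the samples, since same-numbered samples deviated together (mean correlation above 0.1) in 9 of 120 condition pairs, and replicate 1 of cyproheptadine and of DKI came from day 3.

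The members, the partner and marker lists and the promoter motif were chosen with earlier results of these data known, so lists get counts and medians and no test. Members named with statistics are the 3 largest rises and falls among called members in Group A, Group B, between these groups and between the lines, up to 2 called members for each other compound, and in each class the member that changed least in Group B. Further members, such as Qars, Nars2 and Lars2, were named after their values were seen. Positions come from GENCODE M21, promoters from RefSeq, and shared sequence of at least 98% identity from BLAST+ 2.17.0. Stretches of at least 100 bases are listed, and for Lars2, after its values were seen, those from the read length of 50 bases on. Alternatives were other filters, scalings, day terms, variance models and samples left out. Protein sequences, proteomic, metabolite and ChIP-Seq data were not used here, and a few items of the lists are not reported here.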

Additional observations from a re-analysis of the deposited data

Results flagged for a closer look

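Values within groups of 4 to 10 samples were screened for a sample whose gap to its nearest neighbour, over the whole range, exceeded Dixon's 95% critical value. Of 72 such groups 4 had one. The critical value allows about 1 in 20 by chance for independent samples of a single population. These groups pool compounds and share samples across genes, so that rate does not apply here. In Group B, replicate 1 of DKI stood apart in Aars at 13.40 (nearest sample 13.07, lowest 12.89), in Kars at 11.87 (nearest 11.69, lowest 11.59) and in Rars at 11.01 (nearest 10.72, lowest 10.56). Replicate 3 of DKI stood apart in Vars2 at 7.92 (nearest 7.71, lowest 7.60). Replicate 1 of DKI was collected on day 3, as was its replicate 3.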

How the results depend on the processing

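Counts of cytosolic members called stayed within 14 to 17 in Group A, 16 to 17 in Group B and 13 to 15 between the groups with any sample left out. No fold change of a named member reversed under the alternatives run. A few counts changed their mix: the 1 mitochondrial call between cyproheptadine and loxapine was a lower one without cyproheptadine replicate 2 and a higher one under the other settings that gave it, and the second mitochondrial call of pizotifen was a higher one at a minimum mean of 5 and without the day term. With the replicate block in place of the day, Group A had 17 and Group B 16 cytosolic calls, and no count moved by over 1.5 times. Fitting only the compared samples gave 1 cytosolic and 1 mitochondrial call each for cysteamine and nicotinamide, 1 cytosolic and 0 mitochondrial calls between DKI and meclizine, 1 cytosolic call for sodium butyrate, and mitochondrial calls of 1 for cyproheptadine, 3 for meclizine, 0 for loxapine and 6 for STHdhQ7. Without the day term, DKI and meclizine differed in 4 cytosolic members, cyproheptadine and loxapine in 1 mitochondrial member (also 1 without the variance trend), and pizotifen had 2 mitochondrial calls (also 2 at a minimum mean of 5). Rescaling to equal medians left sodium butyrate 1 cytosolic call, and shifted the median of all genes to at most 0.0277. The 1 mitochondrial call of loxapine became 0 with no filter and with collection time added. Against compounds of the same collection slots, chosen after seeing the data, DOP had 7 cytosolic calls, sodium butyrate 5 mitochondrial calls, pizotifen 2 and loxapine 0, and Iars lost its calls with DOP (adjusted p = 0.3, limma) and sodium butyrate (0.18). The causes were not tested.

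With 1 sample left out at a time, cytosolic calls ranged from 0 to 4 for DOP, 2 to 11 between DKI and meclizine, 0 to 1 for selisistat, 0 to 2 for sodium butyrate and 0 to 2 for trichostatin A. Mitochondrial calls ranged from 1 to 4 in Group A, 2 to 4 for meclizine, 0 to 1 for loxapine, 0 to 1 for pizotifen, 0 to 1 between cyproheptadine and loxapine, 0 to 3 between DKI and meclizine, 0 to 3 for selisistat and 1 to 3 for sodium butyrate. Unknown depth sets no floor here, so small differences in the rows with low values may be missed.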

Other observations

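The cytosolic mean of trichostatin A replicate 2 was 0.18 above the vehicle mean, while its other samples were at -0.03 and -0.108. That sample's mitochondrial mean without Lars2 was -0.006. Selisistat replicate 2 was at 0.134, and its other samples at -0.101 and -0.012. With both compounds the spread of the cytosolic enzymes among the 3 samples thus exceeded the mean shift, and no member was called by limma, with 2 members under an unadjusted p of 0.05 for trichostatin A and 5 for selisistat.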
